A study of Mus musculus with 14 samples.

Results

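Genes that carry, receive or damp fibroblast growth factor (FGF) signals were described in the peak lists of a chromatin immunoprecipitation study of ATDC5 cells. The 10 genes were the ligands Fgf2, Fgf7, Fgf9, Fgf10 and Fgf18, the receptors Fgfr1, Fgfr2 and Fgfr3, and the feedback and target genes Dusp6 and Etv5, out of 21887 protein-coding genes. A peak was assigned to a gene when it overlapped the annotated span of the gene, extended by 5 kb on each side, by at least 1 bp. ATDC5 is a mouse line derived from a teratocarcinoma that makes cartilage-like matrix in culture. Cells before differentiation (day 0) and cells kept for 3 or 10 days as attached high-density droplets with β-glycerophosphate and an ascorbate phosphate (day 3 and day 10) were used for immunoprecipitation. The target was H3K4me3, a histone mark found at promoters that are active or poised, or RUNX2, a transcription factor of the runt family needed for bone formation and chondrocyte hypertrophy. Each antibody had 2 libraries on each day, and all groups came from this 1 unmodified line. The question posed by the study's title is which genes RUNX2 regulates in mature chondrocytes. The peaks mark chromatin and not transcript levels, and whether libraries with the same day were separate cultures is not stated in the labels.

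FGF ligands bind receptor tyrosine kinases together with heparan sulfate, and the activated receptors signal through adaptor proteins to RAS and the ERK kinases. Dusp6, a phosphatase that switches ERK off, and Etv5, an ETS-family transcription factor, are switched on by that signal, and Dusp6 closes a feedback loop. In the growth plate, FGFR3 restrains the proliferation of chondrocytes, and FGF18 and FGF9 are ligands that reach it there.

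The promoters of Fgf10, Fgf2 and Fgfr3 are shown because the peaks bear on them most directly. Fgf10 was the only one of the 10 genes that had no H3K4me3 peak in either day 0 library and one in both day 3 libraries. At Fgf2 and Fgfr3 the RUNX2 summit of day 3 lay inside the promoter window. Each window is from RefSeq (GRCm38), runs 5′ to 3′ on the + strand and has the transcript start at position 251. Capitals mark the 32 bases that lay inside the RUNX2 peaks of both day 3 lists for Fgf10, and the 21 bases centred on the RUNX2 summit for Fgf2 and Fgfr3. The windows are chr13:118714449-118714748 for Fgf10, chr3:37348403-37348702 for Fgf2 and chr5:33722056-33722355 for the downstream of 2 annotated starts of Fgfr3.
Fgf10: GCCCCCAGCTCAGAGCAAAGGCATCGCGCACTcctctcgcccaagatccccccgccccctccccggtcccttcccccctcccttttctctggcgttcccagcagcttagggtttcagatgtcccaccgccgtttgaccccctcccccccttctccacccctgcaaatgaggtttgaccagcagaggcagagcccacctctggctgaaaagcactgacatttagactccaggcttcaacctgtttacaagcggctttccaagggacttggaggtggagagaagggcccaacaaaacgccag
Fgf2: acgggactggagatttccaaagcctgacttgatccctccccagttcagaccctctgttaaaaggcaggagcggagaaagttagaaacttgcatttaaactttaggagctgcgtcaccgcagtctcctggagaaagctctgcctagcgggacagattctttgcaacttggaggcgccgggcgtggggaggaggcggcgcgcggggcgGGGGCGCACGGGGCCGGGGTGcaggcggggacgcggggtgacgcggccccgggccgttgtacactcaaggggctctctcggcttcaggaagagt
Fgfr3: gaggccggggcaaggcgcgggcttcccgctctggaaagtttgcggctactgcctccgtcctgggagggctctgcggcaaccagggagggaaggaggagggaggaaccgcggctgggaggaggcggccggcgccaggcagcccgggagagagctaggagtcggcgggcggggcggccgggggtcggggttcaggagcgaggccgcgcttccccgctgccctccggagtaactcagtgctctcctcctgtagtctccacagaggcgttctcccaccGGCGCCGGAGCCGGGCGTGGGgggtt

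The RefSeq table held 11 such windows for 9 of the 10 genes. Across these 11 windows of 300 bp the GC content ran from 42.67% at Fgf9 to 78.67% at Fgf18, around a median of 56.33% over 21263 windows of protein-coding genes. The dinucleotide CG occurred 47 times in the Fgf18 window, 10 times in the Fgf10 window and 4 times in the Fgfr2 window, and the median over all windows was 13. A core form of the runt-domain motif, TGTGGT or ACCACA on the other strand, was in 0 of the 11 windows and in 15.0% of all windows. Other forms of the core were not searched. That result describes only these letters in these windows.

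Several features of the lists bear on every value that follows. The shortest of the 6 H3K4me3 lists came from library 1 of day 0, with 13765 peaks, and library 1 of day 10, with 15219. Their second libraries gave 20863 and 29022 peaks, and the day 3 libraries 28653 and 26781. RUNX2 peaks numbered 19319 and 16859 in the day 3 lists and between 97 and 108 in each of the 4 lists from the other days. The 2 RUNX2 lists of day 3 stood apart from every other pair. Of their 17401 overlapping pairs of peaks, 8992 (51.7%) had the summit at the same base, against 0.130 to 0.400% of the overlapping pairs in the 3 H3K4me3 days. The fold enrichment was the same to every printed digit in 125 of those RUNX2 pairs and in 0 pairs on any of the 3 H3K4me3 days. The 2 RUNX2 lists of day 3 were therefore counted as 1 sample (n = 1), their values are given side by side without an SD, and whether they came from separate libraries was not tested. As a check of the cell type, 4 of 10 chondrocyte marker genes had H3K4me3 peaks in both libraries on day 0, and 9 had them on day 3 and 9 on day 10. Of 20 marker genes of muscle, blood, endothelium, epithelium and neurons, 3, 6 and 4 had them on days 0, 3 and 10. Over all protein-coding genes the shares were 54.8, 64.3 and 59.4% on these days.

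H3K4me3 peaks were found in both libraries at 7 of the 10 genes on day 0, at 10 on day 3 and at 8 on day 10. The same rule called 54.8% of all protein-coding genes on day 0, 64.3% on day 3 and 59.4% on day 10. The 3 receptors, Fgf2, Fgf7, Dusp6 and Etv5 had peaks in all 6 lists. The 3 genes with gaps were all ligands: Fgf9 lacked a peak in library 1 of day 0, Fgf18 in library 1 of day 0 and library 1 of day 10, and Fgf10 in both day 0 libraries and in library 1 of day 10. Except for library 2 of day 0 at Fgf10, each of these gaps lay in 1 of the 2 shortest lists. The part of list length in the gaps was not tested.

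**Figure D1:**
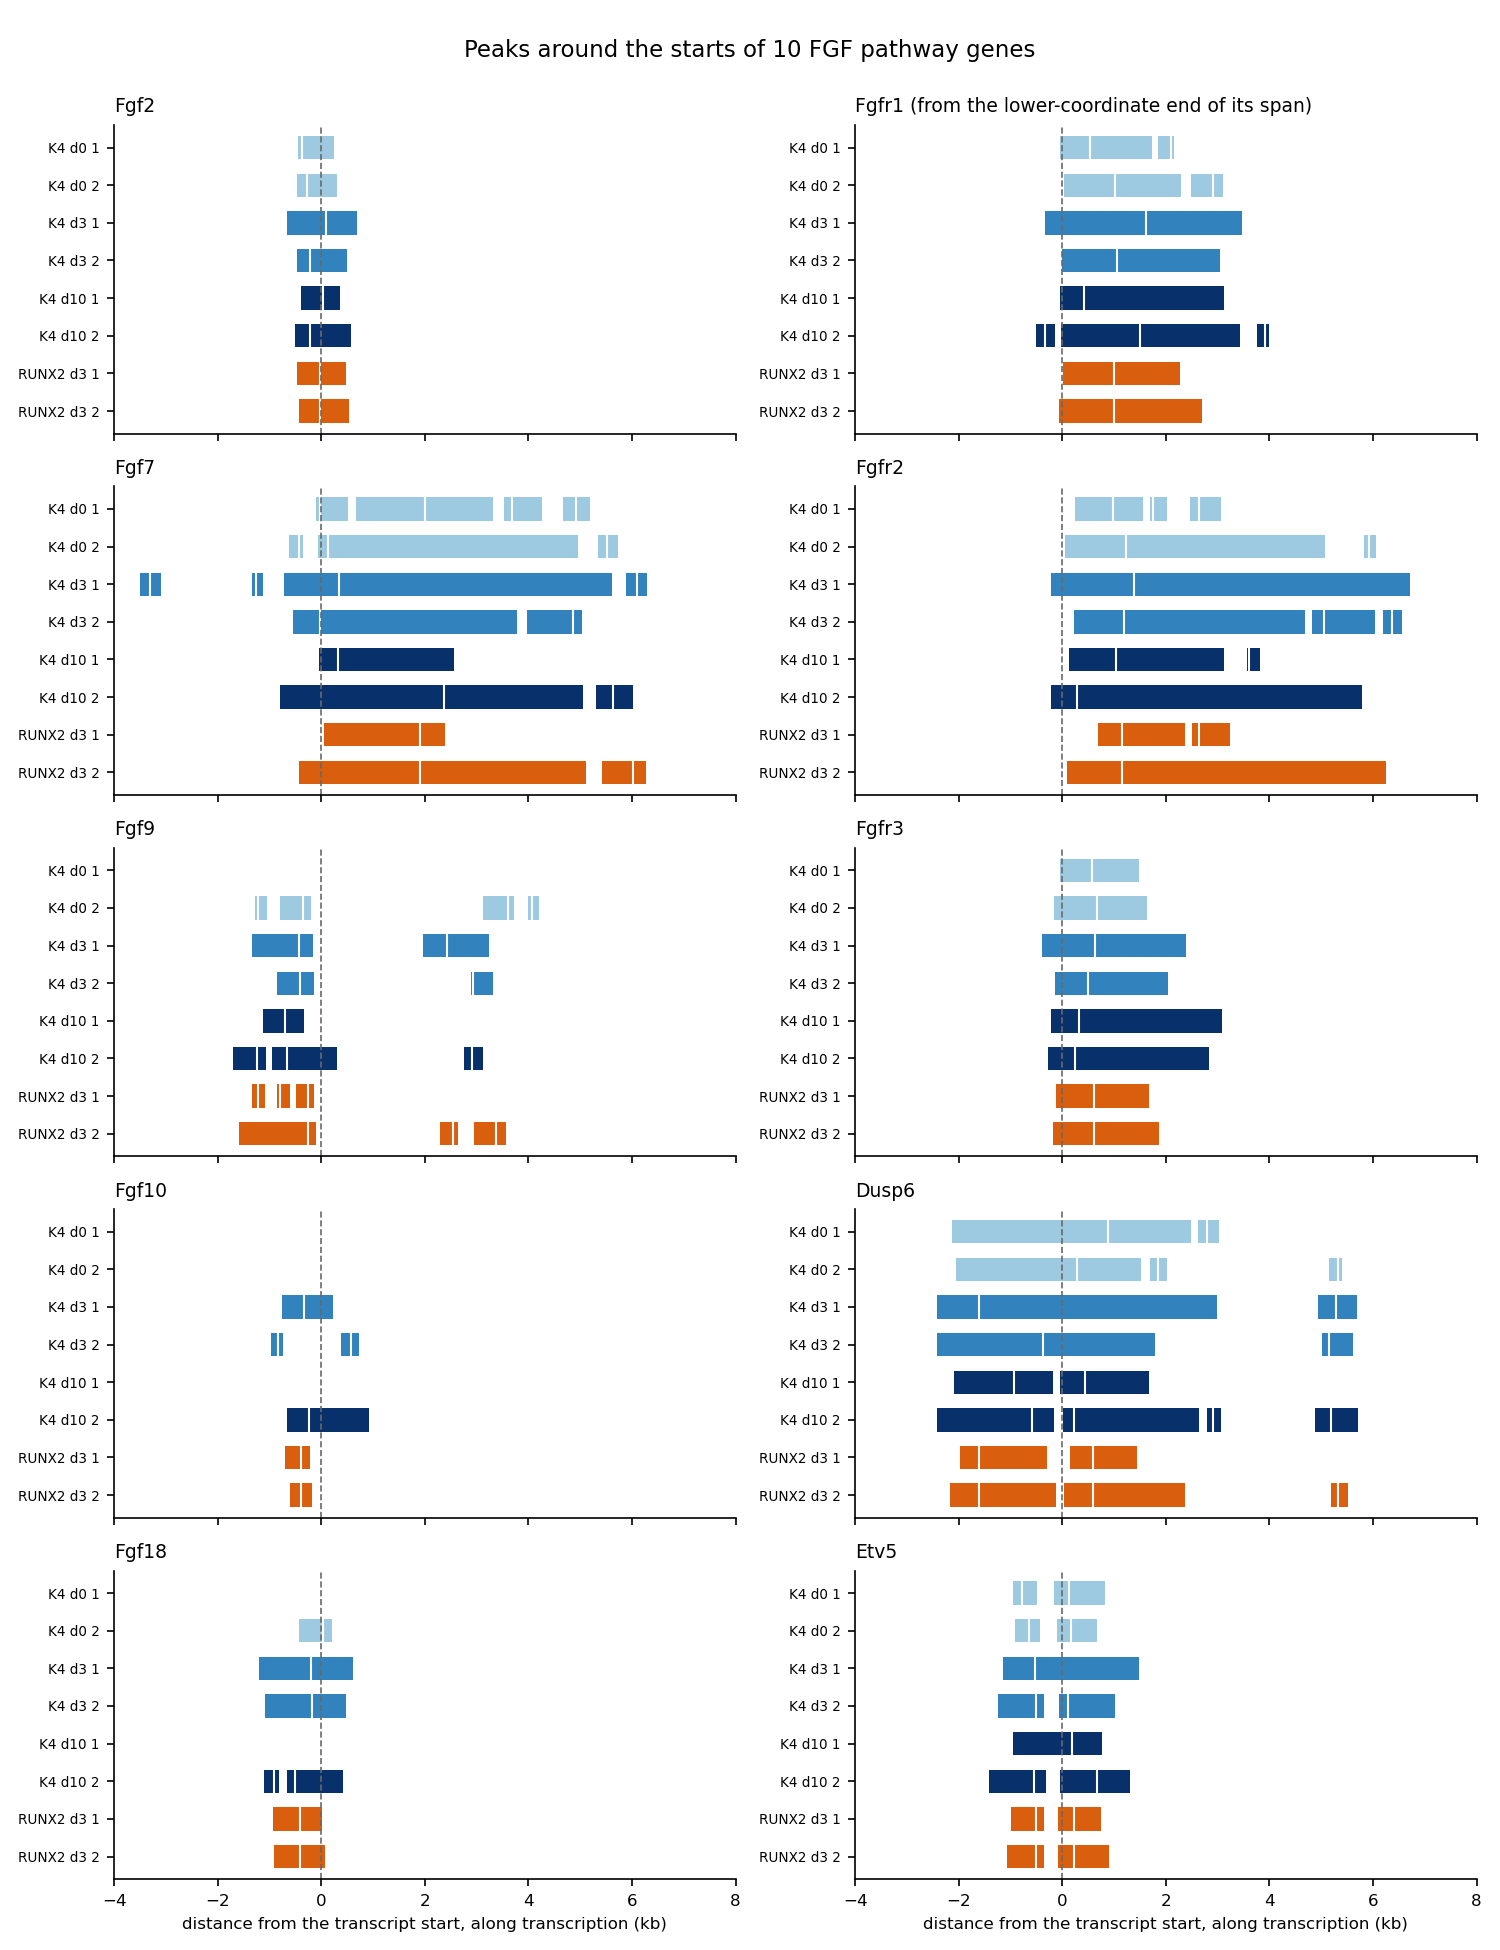
Peaks of the 6 H3K4me3 lists (K4, blue, from day 0 to day 10) and of the 2 RUNX2 lists of day 3 (orange) at each gene, by distance in kb from the outermost annotated transcript start, and for Fgfr1 from the lower-coordinate end of its span. White lines are summits. The H3K4me3 domains are long at Fgf7, Fgfr2 and Dusp6 and short at Fgf2 and Fgf10, and the RUNX2 peaks lie over or beside them.

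Between days, a gene counted as gained when no library showed a peak at the first time and both did at the second, and as lost when the reverse held. On day 3 against day 0, 1 gene was gained, Fgf10, and 0 were lost, where 3.23% and 0.00914% of all genes were called. On day 10 against day 3, 0 were gained and 0 lost (0.0457% and 0.576% of all genes), and on day 10 against day 0, 0 were gained and 0 lost (1.11% and 0.00914%). The count depended on single libraries, and shares of all genes with a library left out are not given here. Without library 2 of day 0, 3 genes were gained on day 3 against day 0, Fgf9, Fgf10 and Fgf18, and 1, Fgf9, on day 10 against day 0. Without library 1 of day 10, 1 gene, Fgf10, was gained on day 10 against day 0. Without library 2 of day 10, 2 genes, Fgf10 and Fgf18, were lost on day 10 against day 3.

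A stricter reading changed which ligand was called. Shares of all genes are not given here for the q limit or for equal numbers of peaks. With peaks of a −log10 q of at least 5 only, Fgf10 and Fgf18 were gained on day 3 against day 0. With the same number of the strongest peaks taken from every H3K4me3 list, 13765, Fgf18 and not Fgf10 was gained on day 3 against day 0 and then lost on day 10 against day 3, and Fgf9 was gained on day 10 against both earlier days. Within 1 kb of an annotated transcript start, 6, 9 and 7 of the 9 genes with a start in the table had H3K4me3 in both libraries on days 0, 3 and 10, where 50.5%, 57.5% and 54.4% of genes did. By that rule Fgf10 was again the 1 gene gained on day 3 against day 0, where 2.22% of genes were called.

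The length of sequence under H3K4me3 peaks in the extended span, called covered bases here, gave a graded measure. It depends on the threshold and depth of each list, and with 2 libraries against 2 an exact two-sided permutation test cannot go below p = 0.333, so no single gene could pass it. A difference was therefore called only where the libraries of the 2 days did not overlap. On day 3 against day 0, 7 of the 10 genes were higher and 0 lower, where the rule called 52.6% and 0.0503% of all genes. On day 10 against day 0, 3 genes were higher, Etv5, Fgfr1 and Fgfr3, and 0 lower (14.4% and 0.206% of all genes). On day 10 against day 3, Fgfr3 was higher and Fgfr2 lower (0.306% and 13.6% of all genes).

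Single libraries moved several of these counts. Shares of all genes with a library left out are not given here, so these counts do not set the 10 genes apart from other genes. Without library 1 of day 10, all 10 genes had more covered bases on day 10 than on day 0, and 2 genes, Fgf10 and Fgfr3, had more on day 10 than on day 3. Without library 2 of day 10, 2 genes, Dusp6 and Fgf7, had fewer on day 10 than on day 0, and 9 had fewer on day 10 than on day 3. Without library 2 of day 0, 6 genes had more on day 10 than on day 0. Without library 2 of day 3, 8 had fewer on day 10 than on day 3. The count of 7 for day 3 against day 0 lay between 7 and 10 when each library was left out in turn. It was 9 with a −log10 q of at least 5, and 5 with equal numbers of top peaks per list. Within 1 kb of the gene ends it was 6. Within 1 kb of a start it was also 6, with a different set: Etv5, Fgf2, Fgf7, Fgf9, Fgf10 and Fgf18, and no receptor.

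**Figure D2:**
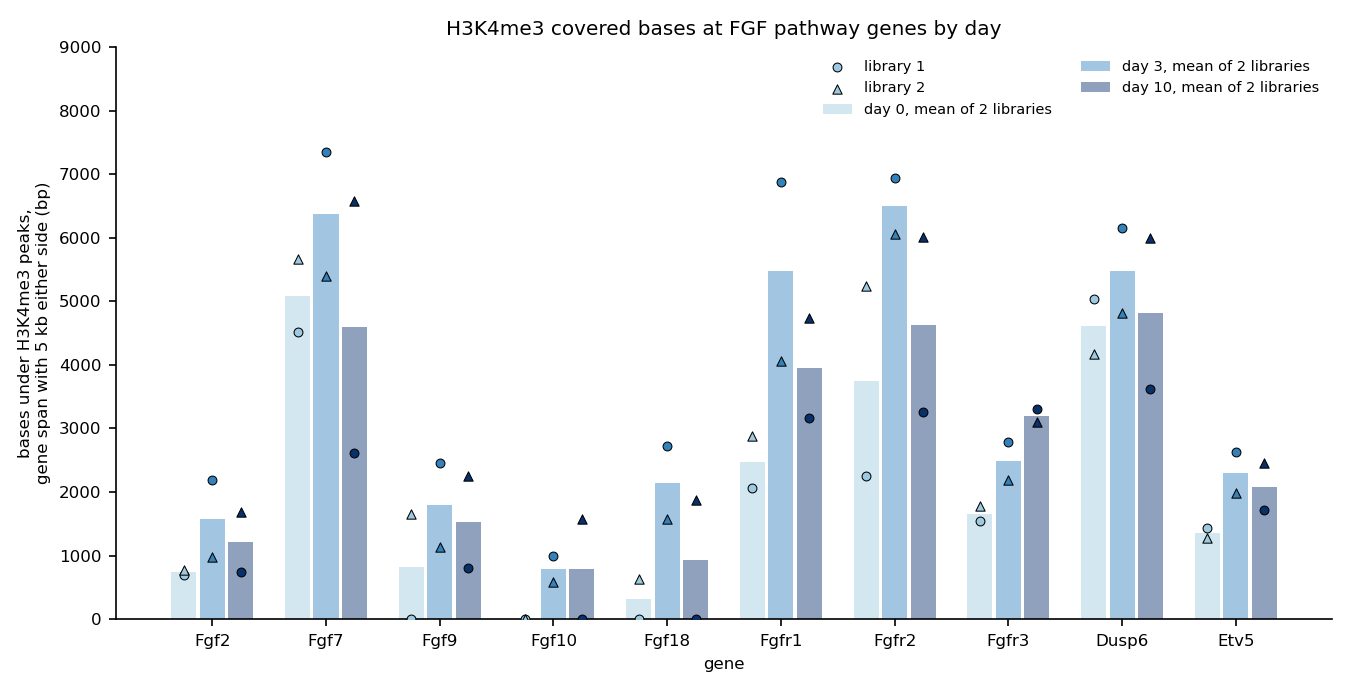
Bases under H3K4me3 peaks at each gene (vertical axis, bp), with a bar for the mean of the 2 libraries of a day and a circle and a triangle for libraries 1 and 2. The day 3 libraries lay above both day 0 libraries at Fgf2, Fgf10, Fgf18, Fgfr1, Fgfr2, Fgfr3 and Etv5, and the 2 day 10 libraries were far apart at most genes.

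Fgf10 encodes a ligand of FGFR2 that the early limb and lung mesenchyme make for the overlying epithelium. It had 0 covered bases in both day 0 libraries, 993 and 579 bp on day 3, and 0 and 1578 bp on day 10. Both day 3 libraries were thus above both day 0 libraries, and the 2 day 10 libraries lay on either side of day 3. With equal numbers of peaks per list, Fgf10 was not called higher on day 3 than on day 0. In library 1 of day 3 a single peak of 993 bp crossed the transcript start, with a fold enrichment of 9.85 and a summit 328 bp upstream. In library 2 of day 3 the start was not covered: 2 peaks of 232 and 347 bp lay on either side, at chr13:118713733-118713964 and chr13:118715086-118715432. The −log10 q of these 2 was 5.97 and 3.04, against 17.3 for the peak of library 1. The call of a gain therefore rested on low-ranking peaks: 32.7% of the peaks in the list of library 2 had a smaller −log10 q than the better of its 2.

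Fgf18, a ligand made around growing cartilage, had 0 and 636 bp on day 0, 2716 and 1569 bp on day 3, and 0 and 1874 bp on day 10. The day 3 libraries were above both day 0 libraries. Library 1 of day 10 was at the lowest value of day 0, and library 2 of day 10 lay between the 2 day 3 values. With equal numbers of peaks per list, and within 1 kb of a start or of a gene end, Fgf18 also had fewer covered bases on day 10 than on day 3. The peak at the start was 636 bp long in library 2 of day 0 and 1814 and 1569 bp in the day 3 libraries, with summits 207 and 175 bp upstream of the start. A second peak lay 24144 bp downstream of the start in library 1 of day 3 and 24409 bp downstream in library 2 of day 10, at chr11:33122637-33123538 and chr11:33122792-33123311, inside the gene. It was absent from the other 4 H3K4me3 lists.

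Fgf9, a ligand of FGFR3 in the developing skeleton, had 0 and 1647 bp on day 0, 2460 and 1136 bp on day 3, and 796 and 2249 bp on day 10. The days overlapped, and no difference was called. With peaks of a −log10 q of at least 5 only, Fgf9 was called higher on both later days than on day 0, and with equal numbers of peaks per list it was called higher on day 10 than on either earlier day. Its peaks did not cross the annotated start except in library 2 of day 10. On day 3 the upstream peak had its summit 425 and 407 bp upstream of the start, and a second peak lay 2433 and 2938 bp downstream. A downstream peak was also called in library 2 of day 0 and library 2 of day 10.

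Fgf2, a widely made ligand stored in the matrix, had 694 and 777 bp on day 0, 2183 and 970 bp on day 3, and 747 and 1684 bp on day 10. Day 3 lay above day 0 without overlap, and day 10 overlapped both. Part of the length in library 1 of day 3 and in library 2 of day 10 came from a peak inside the gene, with summits 12426 and 12451 bp downstream of the start, and library 2 of day 10 had another 46059 bp downstream. The promoter peak alone was 694 and 777 bp on day 0, 1339 and 970 bp on day 3 and 747 and 1089 bp on day 10. The antisense lncRNA gene Fgf2os overlaps this promoter, and the peaks do not tell the 2 genes apart.

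Fgf7, a mesenchymal ligand that acts on epithelial FGFR2, had 4515 and 5657 bp on day 0, 7355 and 5391 bp on day 3, and 2619 and 6578 bp on day 10. The 3 days overlapped, though within 1 kb of a start or of a gene end Fgf7 was called higher on day 3 than on day 0. In library 1 of day 3 a single peak ran for 6325 bp across the start and into the gene. Counted within 5 kb of the start, Fgf7 had 2619 to 6340 bp over the 6 lists, more than 94.2 to 99.5% of the genes that had any covered bases there. Fgf7 lies inside the span of another protein-coding gene, Fam227b.

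Of the receptors, Fgfr3, which restrains growth-plate chondrocytes, was the 1 gene of the 10 at which no day overlapped another. It had 1536 and 1785 bp on day 0, 2787 and 2182 bp on day 3, and 3303 and 3101 bp on day 10. The values were higher at each later time. Means were 1661 ± 176 bp on day 0, 2485 ± 428 bp on day 3 and 3202 ± 143 bp on day 10 (SD, n = 2 each). Each list gave 1 unbroken peak over the start, and the peak was longer on its downstream side on later days: on chromosome 5 it ended at positions 33723207 and 33723352 in the day 0 libraries, 33724120 and 33723767 in the day 3 libraries, and 33724813 and 33724547 in the day 10 libraries. Within 1 kb of a start or of a gene end, which leaves out the flank of the domain, Fgfr3 was called higher only on day 10 against day 0, and neither on day 3 against day 0 nor on day 10 against day 3.

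Fgfr2, the receptor for FGF7 and FGF10 in its epithelial form, had 2247 and 5245 bp on day 0, 6937 and 6053 bp on day 3, and 3251 and 6011 bp on day 10. Both day 3 values were above all 4 others, though library 2 of day 10 came close to library 2 of day 3. With equal numbers of peaks per list, neither the rise from day 0 to day 3 nor the fall by day 10 was called. The same held within 1 kb of a start or of a gene end, windows that leave out most of the domain. In library 1 of day 3 a single peak ran for 6937 bp from the start into the gene. Within 5 kb of the start, Fgfr2 had 2247 to 5221 bp over the 6 lists, more than 89.3 to 99.2% of covered genes. The promoter window of Fgfr2, with the fewest CG dinucleotides of the 11, lay at the upstream edge of this wide domain. The domain stopped short of the window in library 1 of day 0, library 2 of day 3 and library 1 of day 10.

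Fgfr1, the receptor of mesenchymal and hypertrophic cells, had 2068 and 2883 bp on day 0, 6878 and 4061 bp on day 3, and 3168 and 4734 bp on day 10. Both later days lay above day 0 without overlap, and day 10 overlapped day 3. Fgfr1 was called higher on neither later day against day 0 within 1 kb of the gene ends. That window leaves out part of the domain and the peaks farther into the gene. Peaks farther into the gene made up part of the difference. At 2 places inside the gene, both day 3 libraries and library 2 of day 10 had peaks, with summits 18298 and 25862 bp from the lower-coordinate end of the span in library 1 of day 3, while neither day 0 library nor library 1 of day 10 had one. The lncRNA gene Gm31288 overlaps both places. The domain at the lower-coordinate end, taken alone, was 3800 and 3057 bp on day 3 against 2068 and 2883 bp on day 0, again without overlap.

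Dusp6 had 5038 and 4175 bp on day 0, 6152 and 4808 bp on day 3, and 3624 and 5996 bp on day 10. The 3 days overlapped. Its domain reached about 2 kb upstream of the start. In the day 0 and day 3 libraries 1 peak crossed the start, and in both day 10 libraries the domain was called with a gap at the start or just upstream of it. In library 2 of day 10 the start itself was in the gap, between a peak that ended at chr10:99263071 and one that began at chr10:99263239. Within 5 kb of the start, Dusp6 had more covered bases than 97.3 to 99.8% of covered genes. It had fewer covered bases on day 10 than on day 3 within 1 kb of a start or of a gene end, and fewer than on day 0 within 1 kb of a start. Dusp6 was called higher on day 3 than on day 0 with a −log10 q of at least 5 and within 1 kb of the gene ends. The same held without library 1 of day 0 or without library 2 of day 3. A separate peak more than 5 kb downstream of the start, with summits 5290 and 5144 bp away on day 3, lay in the neighbouring lncRNA gene Gm34921. It was called in 4 of the 6 H3K4me3 lists and in neither of the 2 shortest.

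Etv5 had 1440 and 1272 bp on day 0, 2626 and 1986 bp on day 3, and 1714 and 2451 bp on day 10. Both later days lay above day 0 without overlap, and they overlapped each other. Without the extension of the span, Etv5 was not called higher on day 10 than on day 0, and Fgf2 was called in its place. In 4 of the 6 lists the signal was called as 2 peaks with a gap upstream of the outer start. In library 2 of day 3 the first peak ended at chr16:22439637 and the second began at chr16:22439915. In library 1 of day 3 and library 1 of day 10 a single peak covered the gap.

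RUNX2 peaks were found at all 10 genes in both day 3 lists, and at 0 of 10 on day 0 and on day 10. The same rule called 61.1% of all protein-coding genes on day 3, 0.0274% on day 0 and 0.0183% on day 10. On day 3 against day 0, 10 of 10 genes were gained, and on day 10 against day 3, 10 of 10 were lost, each beside 61.0% of all genes. With about 100 peaks in each of the 4 lists of day 0 and day 10, a missing RUNX2 peak at a gene follows the length of the list, and the cause of the short lists was not tested. Since the 2 day 3 lists count as 1 sample, these calls have no replicate check.

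On day 3 all 9 genes with an annotated start had a RUNX2 peak within 1 kb of it in both lists, as did 55.6% of genes. At Fgf2 the summit was 34 bp upstream of the start in both lists, and at Fgfr3 it was 34 bp downstream of the second start in both lists. At Fgf9 it was 252 bp upstream in both lists, at Fgf10 389 or 390 bp and at Fgf18 403 or 411 bp upstream. Summits at 3 genes with long H3K4me3 domains lay farther into the domain. At Fgfr2 the summit was 1150 or 1149 bp downstream of the start, at Fgf7 1904 bp downstream in both lists, and at Dusp6 there were 2, 1602 bp upstream and 589 bp downstream. Of the 15 RUNX2 regions shared by the 2 lists at these genes, 8 had the summit at the same base and 11 within 5 bp.

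Where the H3K4me3 domain was long, the RUNX2 peaks were long. RUNX2 covered 2335 and 6404 bp at Fgf7 in list 1 and list 2, 2414 and 6157 bp at Fgfr2, and 2976 and 4711 bp at Dusp6, against 476 and 422 bp at Fgf10. Over the 9 genes with an annotated start, the covered length of RUNX2 and the mean covered length of H3K4me3 on day 3, both within 5 kb of the start, had a Spearman rho of 0.883 in list 1 and 0.933 in list 2. These are descriptions over 9 chosen genes, and the lists share the chromatin of 1 line, the peak caller and the width of the domains. No rho over all genes is given here, so the values do not set these genes apart. At Etv5 both RUNX2 lists had a gap over the stretch that the H3K4me3 peaks of library 2 of day 3 did not cover and the peak of library 1 of day 3 did. In RUNX2 list 1, 1 peak ended at chr16:22439650 and the next began at chr16:22439919.

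Of the 15 RUNX2 regions, 13 (86.7%) overlapped H3K4me3 peaks of both day 3 libraries, as did 97.6% of 17401 regions over the whole genome. The exceptions were the region at Fgf10 and the outermost of the 3 regions at Fgf9. At Fgf10 the RUNX2 region, chr13:118714092-118714480, lay between the 2 H3K4me3 peaks of library 2 of day 3 and inside the H3K4me3 peak of library 1. At Fgf9 it lay at chr14:58071341-58071594, 1223 bp upstream of the start by its summit in list 1.

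**Figure D3:**
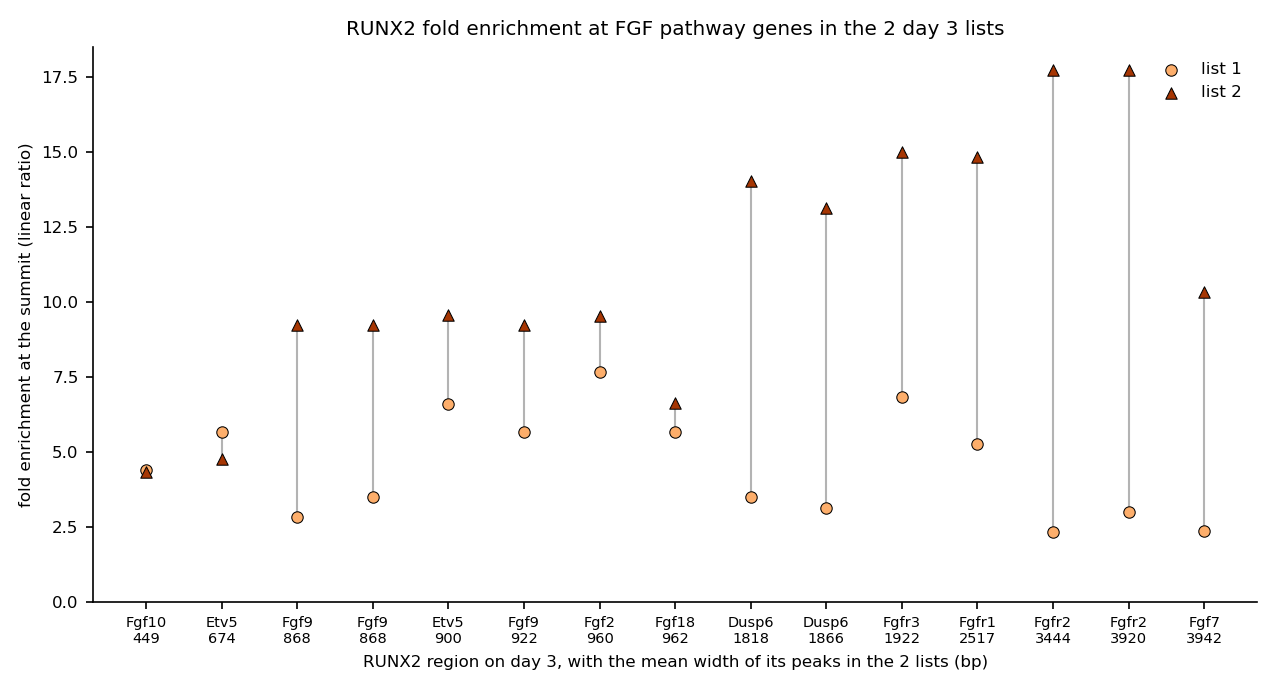
Fold enrichment at the summit (linear ratio, vertical axis) of the 15 RUNX2 regions of day 3 in list 1 (circle) and list 2 (triangle), ordered by the mean width of the peaks. The 2 lists give like values at the narrow regions of Fgf10 and Fgf18 and at the upstream region of Etv5, and list 2 is far above list 1 at Fgfr1, Fgfr2, Fgfr3, Fgf7 and Dusp6. List 2 is also above list 1 at the narrow regions of Fgf9. Regions of Fgf9 and of Fgfr2 share 1 peak of list 2 each.

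The fold enrichments of the 2 day 3 lists, which are the authors' values, parted as the peaks became wider. Like values were found at some narrow regions. They were 4.39 and 4.31 at Fgf10 in list 1 and list 2, 5.67 and 6.62 at Fgf18, and 5.67 and 4.76 at the upstream region of Etv5. The narrow regions of Fgf9 were an exception, with 3.50, 2.82 and 5.66 in list 1 against 9.24 in list 2. They were 254, 254 and 360 bp wide in list 1 and shared a peak of 1483 bp in list 2. At the wide domains they were 3.01 and 17.7 at Fgfr2 (the region with the summit), 2.36 and 10.3 at Fgf7, and 3.50 and 14.0 at the downstream region of Dusp6. Fgfr1 had 5.26 and 14.8, and Fgfr3 had 6.83 and 15.0. The rank of a gene by RUNX2 fold thus differed between lists: Fgf2, with 7.67 and 9.51, had the highest value of the 10 genes in list 1 and was below Etv5, Fgfr1, Fgfr2, Fgfr3, Fgf7 and Dusp6 in list 2. The same held over all 17401 regions. The median ratio of list 2 to list 1 was 0.947 in the 1681 regions up to 500 bp wide, 1.07 in 4396 regions of 500 to 1000 bp, 1.63 in 9200 regions of 1000 to 2000 bp and 2.74 in 2124 wider regions. Width here was the mean over the 2 lists, so the width in list 2 helped to set the bin. A wide peak of list 2 was counted with each list 1 peak that it overlapped. What made the lists differ by width was not tested.

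The rest of the pathway was read with 62 further genes. Of 20 genes that relay the signal from the receptor to ERK, all 20 had H3K4me3 peaks in both libraries on each day and RUNX2 peaks in both day 3 lists. Of 16 other feedback and target genes, 14, 15 and 15 had H3K4me3 on days 0, 3 and 10, and 15 had RUNX2 on day 3. Among 17 other ligands, 2, 6 and 3 had H3K4me3 on days 0, 3 and 10, and 5 had RUNX2. Of 9 other receptors and co-receptors, 3, 5 and 5 had H3K4me3 and 5 had RUNX2. Over the 62 genes this made 39, 46 and 43 with H3K4me3 and 45 with RUNX2, of which some peaks lie nearer to the start of a neighbouring gene. By the same rule, 54.8, 64.3 and 59.4% of all protein-coding genes had H3K4me3 on days 0, 3 and 10. For RUNX2 on day 3 the share was 61.1%.

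None of the 62 genes was gained in any comparison of days. Of all genes, 3.23% were gained on day 3 against day 0, 0.0457% on day 10 against day 3 and 1.11% on day 10 against day 0. Only 1 of the 62 was lost, on day 10 against day 3, where 0.576% of all genes were called. That gene was Fgf8, which encodes a signal of the limb bud ridge. Its H3K4me3 peak was called in library 2 of day 0 and in both day 3 libraries, and in neither day 10 library. Fold enrichments were 4.90, 5.76 and 5.30, and −log10 q values were low, at 4.26, 6.94 and 5.76. With equal numbers of top peaks per list, or within 1 kb of a transcript start, Fgf8 was not called lost. It was also the 1 gene of the 62 with H3K4me3 but not RUNX2 in both lists of day 3. These counts moved with single libraries: up to 7 genes were gained on day 3 against day 0 and up to 4 on day 10 against day 0, in both cases without library 2 of day 0, and 3 were lost on day 10 against day 3 without library 2 of day 10. Shares of all genes with a library left out are not given here.

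**Figure D4:**
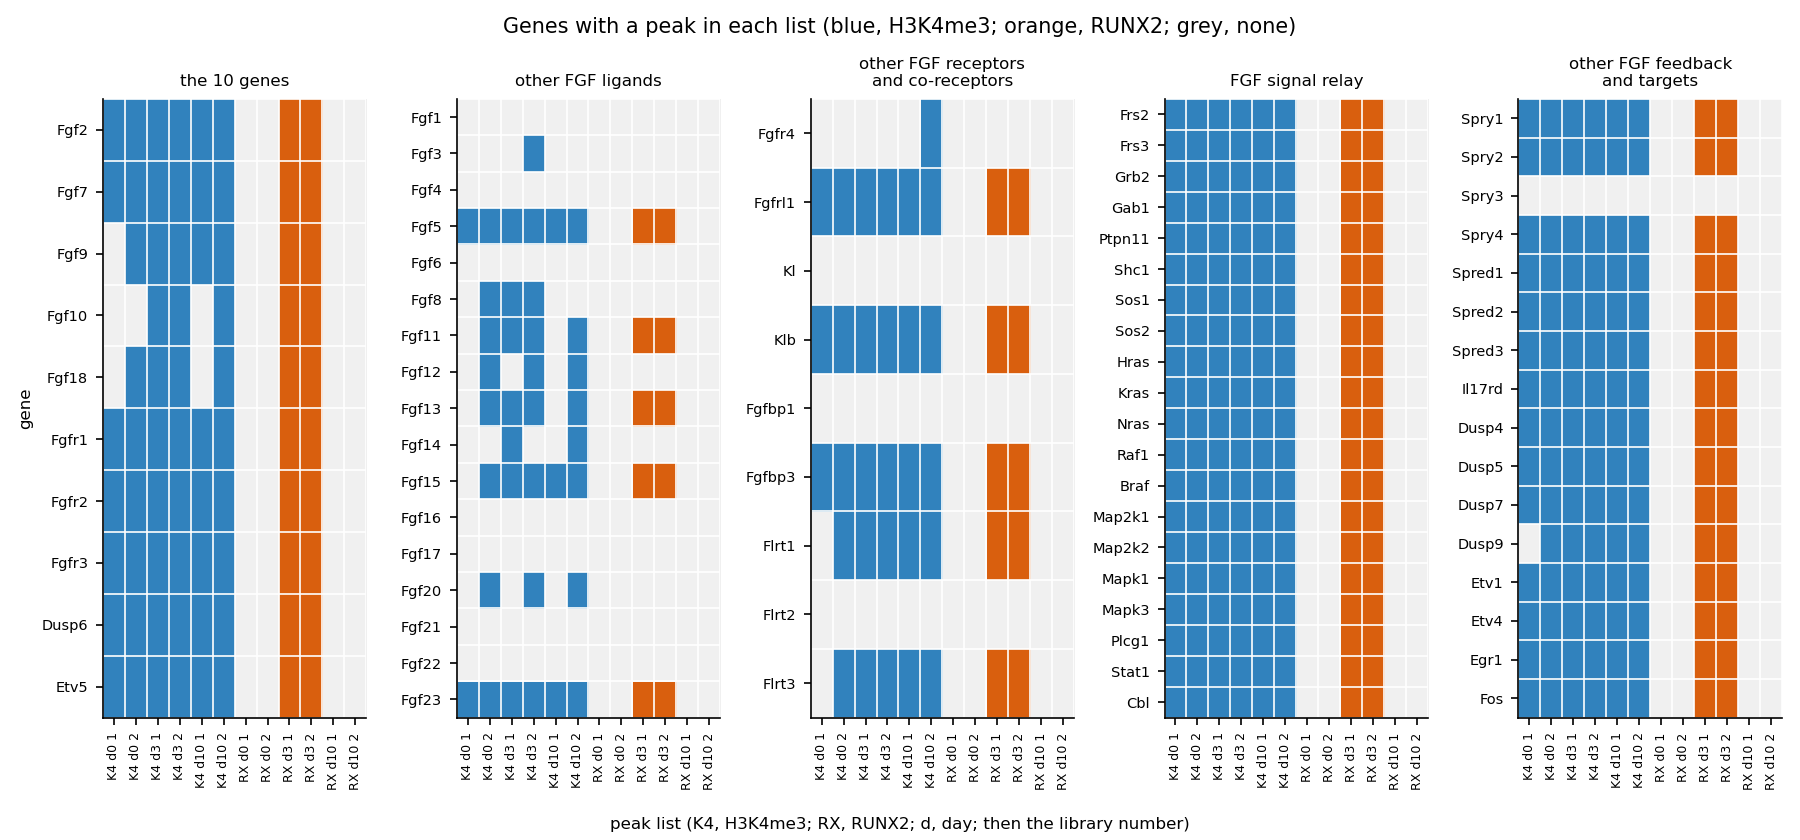
Presence of a peak in each of the 12 lists (columns, H3K4me3 then RUNX2, each from day 0 to day 10) at the 10 genes and at 62 other genes of the pathway (rows). The 20 relay genes have peaks in all 6 H3K4me3 lists and both RUNX2 lists of day 3, and the gaps lie mostly among ligands.

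Likeness to the 3 ligands with gaps was measured as the number of the 12 lists in which 2 genes agreed on having a peak. Fgf9 shared its pattern in all 12 lists with Fgf15, Flrt1, Flrt3 and Dusp9, and with 3.43% of all protein-coding genes. Flrt1 and Flrt3 encode membrane proteins that can bind FGF receptors, and Dusp9 another ERK phosphatase. Fgf18 shared its pattern with Fgf11 and Fgf13, whose products stay inside the cell, and with 1.21% of all genes. Fgf13 had fold enrichments of 9.03 and 7.27 on day 3 at its own start. Fgf11 had 2 peaks in each day 3 library, covering 2035 and 2010 bp. The strongest lay 284 and 194 bp from the start of its neighbour Chrnb1. Without the extension of the span, and within 1 kb of an annotated start, Fgf11 was gained on day 3 against day 0. Fgf10 shared its pattern with 0 of the 62 genes and with 0.516% of all genes. The other 7 genes had the pattern of 39 of the 62 genes and of 54.5% of all genes, a peak in every H3K4me3 list and in both RUNX2 lists of day 3.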

How the data were processed

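The 12 deposited peak lists, 6 for H3K4me3 and 6 for RUNX2, were analysed. The 2 input samples were not used here. Per the submitters' processing notes, reads of 75 bp were treated with FastQC, Trim Galore, HISAT2 2.2.0 and MACS2. Whether an input control or duplicate removal was used, like the other settings, is not given in the sources used here. Peaks were called per library, since each deposited list names 1 library. Following the narrowPeak column order, the deposited fold enrichment is the authors' linear ratio at the summit to the caller's local background. The deposited −log10 p and −log10 q values are the authors', with a q limit of 0.05, and the deposited score is the −log10 q scaled to whole numbers. Reads per library are not given in the files, so depth is unknown and a gene without a peak had none called at that depth.

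The notes name GRCm39, but 38.4 to 70.7% of H3K4me3 summits lay within 1 kb of a GRCm38 transcript start of RefSeq, and 3.73 to 4.43% did after a shift of 20 kb, so the lists were read as GRCm38. Overlaps, covered bases and distances were computed with Python 3.11.15, numpy 2.4.6 and pandas 2.3.3, with code tested on simulated intervals. Positions are counted from 1. Peak lists hold no counts, so no count model was fitted. The members and gene lists were chosen with earlier results of these data known. All 10 members are named. Of the 62 other pathway genes, the text names those gained or lost in a comparison of days, those with only 1 of the 2 marks on day 3, and those with the same presence in 12 lists as a member with gaps. Alternatives were a −log10 q of at least 5, equal numbers of top peaks per list (13765 for H3K4me3 and 16859 for RUNX2), no extension of the span, 1 kb around gene ends, summits in place of overlap, leaving out each library, and 1 kb around transcript starts.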

Additional observations from a re-analysis of the deposited data

How the results depend on the processing

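Counts of genes called on a day from both of its libraries were within 1.5 times the reported count for the 10 genes under every alternative run. With a −log10 q of at least 5, 2 of the 10 genes and 3 of the 62 others were gained on day 3 against day 0. With equal numbers of top peaks, 1 of the 10 was gained and 1 lost on day 10 against day 3, 1 was gained on day 10 against day 0, and 2 had more covered bases on day 10 than on day 3. Of the 62, 1 was then gained on day 3 against day 0, 0 lost on day 10 against day 3 and 1 gained on day 10 against day 0. With no extension, 2 of the 62 were gained on day 3 against day 0. Within 1 kb of the gene ends, 0 of the 10 had more and 2 had fewer covered bases on day 10 than on day 3. Within 1 kb of a transcript start, an alternative chosen after seeing the data, those counts were 0 and 2, and 1 had fewer on day 10 than on day 0. Of the 62, 28 then had H3K4me3 on day 10, 2 were gained on day 3 against day 0 and 0 lost on day 10 against day 3. That table of starts covers fewer genes. Summits in place of overlap give no covered bases. Shares of all genes under these alternatives are not given in this section.

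Leaving out 1 library at a time gave these ranges, which have no share of all genes beside them. Of the 10, 1 to 3 were gained on day 3 against day 0, 0 to 1 on day 10 against day 0, and 0 to 2 were lost on day 10 against day 3. Covered bases were higher at 1 to 2 and lower at 1 to 9 on day 10 against day 3, and higher at 3 to 10 and lower at 0 to 2 on day 10 against day 0. Of the 62, 0 to 7 were gained on day 3 against day 0, 0 to 1 on day 10 against day 3 and 0 to 4 on day 10 against day 0, and 1 to 3 were lost on day 10 against day 3 and 0 to 1 on day 10 against day 0. The rule asks less of a day with 1 library left. The cause of the other changes was not tested. No paired analysis was possible because the results come from no test, and the labels do not say that a replicate number marks a shared culture.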
